A study of Mus musculus with 4 samples.

Results

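V2a interneurons are excitatory neurons of the ventral spinal cord whose axons stay on their own side. Some project along the cord as propriospinal neurons, and others stay local and contact motor neurons and other interneurons. The nuclei described here are neuron nuclei of this lineage that carried RNA of at least 3 of 10 genes, among them Dnah11, Hmcn2 and Irs4. In all, 300 of 2644 neuron nuclei met the rule (4001 nuclei were deposited).

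The rule worked on stored entries. Each deposited matrix listed a gene for a nucleus when it had been detected there, and 53.0% to 60.1% of these entries held a count of 0. Such zeros are read here as detections that the authors' subtraction of free RNA (SoupX) had emptied. No label states this, and it was inferred from the files. A neuron nucleus had at least 500 genes with a count and a stored entry for at least 4 of the 6 neuronal genes Rbfox3, Snap25, Syt1, Snhg11, Grin1 and Grin2b. A member nucleus also had a stored entry for at least 3 of 10 defining genes: Gm12128, Gm12130, Dnah11, Hmcn2, Abi3bp, Hs3st2, Qrfpr, Irs4, Col4a4 and E130114P18Rik. Members were thus chosen by stored entries of genes that had been picked because they mark a cluster of these same nuclei. For that reason differences between member and other neuron nuclei are given as description, with no test.

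The mice were female and carried 1 Cre allele that marks the V2a lineage and 1 ROSA26CAG-LSL-Sun1-sfGFP-Myc allele, both heterozygous, and GFP-positive nuclei of the cervical cord were sorted. All groups share these alleles. Cre marks every cell that has ever expressed it, so the sort collects a lineage and not only cells that express Cre in the adult. Uninjured tissue (2 libraries) covered segments C1 to C8. Injured tissue (2 libraries) covered C3 to C8 and was taken 5 days after hemisection at C2, so injury and segment range cannot be told apart. The labels give neither the age of the mice nor whether each library came from another animal. All p-values therefore compare libraries, whose spread may be technical.

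Values for each library are given in the order uninjured 1, uninjured 2, injured 1, injured 2. Member nuclei numbered 94, 103, 73 and 30, with 1650372, 1486941, 1006907 and 249920 summed counts. Injured library 2 was thus the thinnest, and levels below are CPM, counts summed over the nuclei of a library and scaled so that all genes together give the same total in each. Median counts per member nucleus were 13040.5, 11777, 10492 and 6857.5, against 10116, 7320, 5653.5 and 6809 in the other neuron nuclei. A rule that asks for stored entries favours deep nuclei, so all shares of other neuron nuclei below were averaged over bins of stored genes per nucleus with the members' weights. Doublet calls fell on 1 member nucleus, and no member barcode was shared between libraries.

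The 10 defining genes fall into 5 roles, and each was stored in member nuclei of all 4 libraries. Positions are those of mm10 (GRCm38). Gm12128 (chromosome 11, 37658989 to 37673166, plus strand) and Gm12130 (chromosome 11, 38493330 to 38520013, minus strand) are long intergenic noncoding RNAs that lie 820164 bases apart, with Gm25693 and Gm12129 between them. Dnah11 (chromosome 12, 117877982 to 118199043) encodes a heavy chain of the axonemal dynein of motile cilia. Hmcn2 (chromosome 2, 31314415 to 31460738), Abi3bp (chromosome 16, 56477878 to 56690135) and Col4a4 (chromosome 1, 82448423 to 82586849) encode extracellular matrix proteins: a hemicentin, a secreted matrix glycoprotein and a type IV collagen chain of basement membranes. Hs3st2 (chromosome 7, 121391859 to 121501770) encodes an enzyme that adds a sulfate group to heparan sulfate. Qrfpr (chromosome 3, 36179424 to 36222313) encodes the receptor of the peptide QRFP, and Irs4 (chromosome X, 141710998 to 141725263) an adaptor of insulin and growth factor receptors. E130114P18Rik (chromosome 4, 97568133 to 97778078) is a gene with no role given here that overlaps Nfia on the opposite strand.

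Hs3st2 was stored in 83.0%, 82.5%, 90.4% and 86.7% of member nuclei, against 29.0%, 27.2%, 22.2% and 21.7% of other neuron nuclei. Its summed level was 437, 504, 484 and 772 CPM in members and 23.6, 35.5, 24.8 and 13.5 CPM in the others. Dnah11 was stored in 64.9%, 55.3%, 71.2% and 60.0% of members and 10.4%, 9.08%, 17.7% and 15.3% of other nuclei. Neither gene was exclusive to member nuclei, but other nuclei kept few counts of Dnah11, 1.41 to 6.93 CPM against 75.5 to 167 CPM in members. Gm12128 was stored in 59.6%, 65.0%, 63.0% and 43.3% of members and 7.02% to 12.4% of the others. E130114P18Rik was stored in 69.1%, 68.9%, 47.9% and 70.0% of members and 10.7% to 19.5% of the others.

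The matrix genes and the receptor genes were each stored in a minority of members and in few other nuclei. Hmcn2 was stored in 38.3%, 32.0%, 34.2% and 40% of member nuclei and 1.44% to 3.02% of others. Irs4 was stored in 18.1%, 16.5%, 24.7% and 23.3% of members and 0.524% to 1.13% of others, and Qrfpr in 18.1%, 19.4%, 21.9% and 33.3% against 0.116% to 1.80%. Gm12130 was stored in 36.1% ± 4.73 of members (SD over n = 4 libraries) and 2.22% ± 0.994 of others. Abi3bp reached 32.7% ± 4.54 against 8.42% ± 2.16, and Col4a4 32.7% ± 6.58 against 5.40% ± 3.57. For each of these 6 genes the lowest member share lay above the highest share of other nuclei, which is what the rule selects for.

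**Figure D1:**
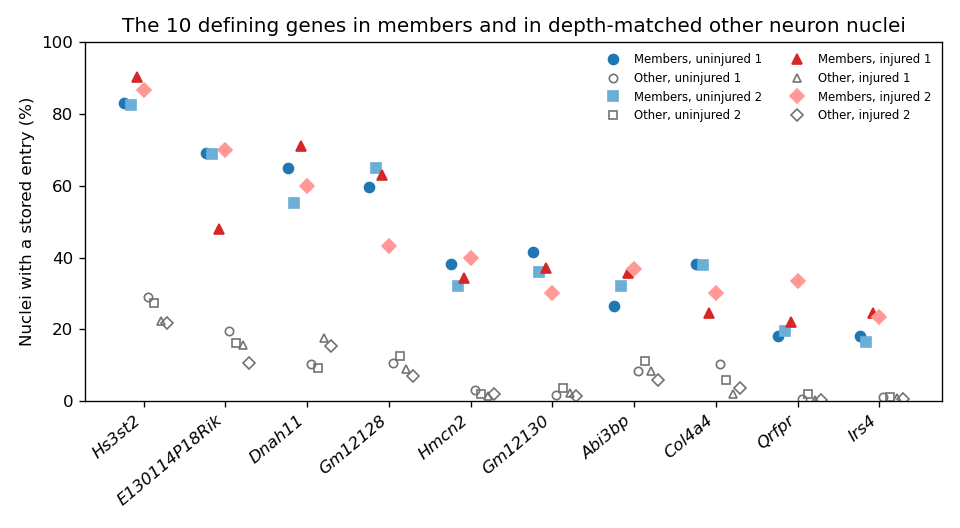
Each column is 1 defining gene, and each point is 1 library: filled symbols give the share of member nuclei with a stored entry (%), open grey symbols the depth-matched share of other neuron nuclei. Hs3st2 is stored in 82.5% to 90.4% of members but also in 21.7% to 29.0% of other nuclei, whereas Irs4 stays at or under 1.13% outside the members.

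Member nuclei ranged widely in how many defining genes they stored. Over all neuron nuclei, 1149 stored 0 of the 10 genes, 847 stored 1, 348 stored 2, 142 stored 3, 51 stored 4, and 107 stored 5 or more. There were 25, 29, 21, 13, 16 and 3 nuclei at 5, 6, 7, 8, 9 and 10 genes, so counts fell at each step to 5 genes and less evenly beyond. The nuclei with 5 or more defining genes numbered 38, 33, 25 and 11 in the libraries, so 193 of the 300 members stored 3 or 4 genes. The boundary at 5 was chosen after these counts were seen.

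**Figure D2:**
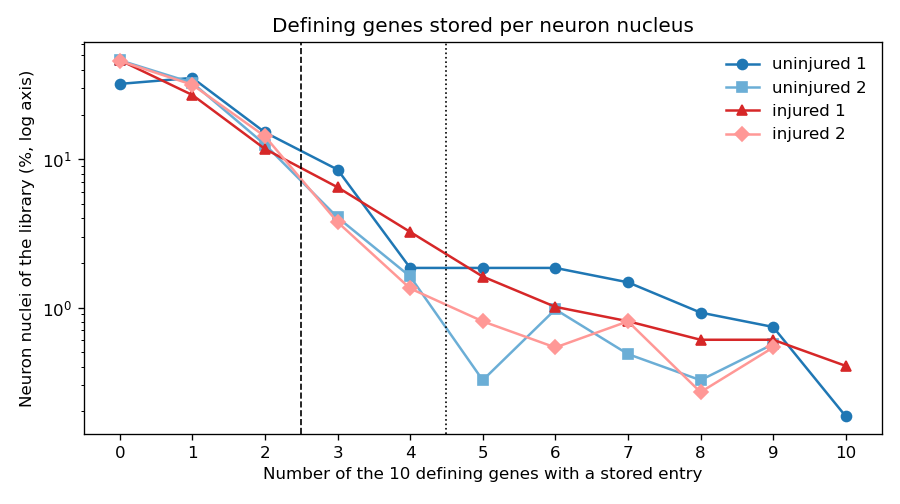
The share of a library's neuron nuclei (%, log axis) is plotted against how many of the 10 defining genes were stored, 1 line per library. The dashed line marks the rule (3 or more) and the dotted line 5 or more, a boundary chosen after these counts were seen.

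Nuclei just inside the rule resembled nuclei just outside it. Hs3st2 had a pooled level of 46.2 CPM in nuclei with 2 defining genes, 66.4 with 3, 213 with 4 and 1318 with 5 or more. Gm12128 went from 10.8 to 17.5, 37.6 and 777 CPM over the same classes, and Irs4 from 0.212 to 0.449, 5.19 and 53.0 CPM. Levels of these 3 genes were thus highest in the 107 nuclei with 5 or more. Each defining gene also went with the remaining 9. Hs3st2 was stored in 305 of 1454 nuclei with none of the others and in 106 of 114 nuclei with at least 4 of them. For Dnah11 the counts were 99 of 1248 and 90 of 125, for Hmcn2 32 of 1181 and 74 of 144, and for Irs4 9 of 1158 and 45 of 151. For Abi3bp they were 108 of 1257 and 43 of 144.

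Genes outside the rule showed the same step. Nfib, a nuclear factor I transcription factor, was stored in 31.3% of nuclei with 2 defining genes, 43.0% with 3, 58.8% with 4 and 94.4% with 5 or more. Dscaml1, a Dscam-like adhesion molecule, went from 37.9% to 45.1%, 66.7% and 93.5%. Zfhx4, a zinc finger homeobox factor, ran the other way, from 74.7% to 70.4%, 54.9% and 21.5%. Cacna1e, the pore subunit of R-type calcium channels, went from 87.9% to 84.5%, 62.7% and 22.4%, and the noncoding RNA Rmst from 89.1% to 88.7%, 62.7% and 25.2%. For all 5 genes the value at 3 was nearer to that at 2 than to that at 5 or more.

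**Figure D3:**
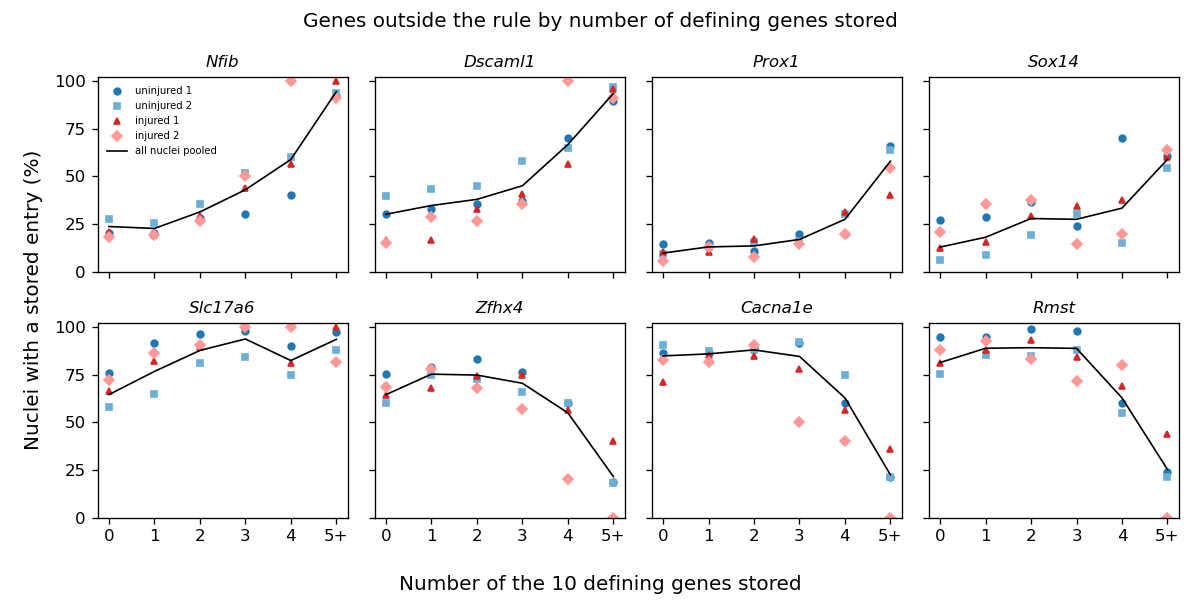
The share of nuclei with a stored entry (%) for 8 genes outside the rule is plotted against the number of defining genes stored, with points for libraries and a line for all nuclei pooled. Nfib rises from 31.3% at 2 genes to 94.4% at 5 or more, and Zfhx4 drops from 74.7% to 21.5%, while Slc17a6 is above 80% from 2 genes on.

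The label of a glutamatergic V2a neuron was checked against its markers. Slc17a6, the vesicular glutamate transporter of spinal excitatory neurons, was stored in 96.8%, 83.5%, 95.9% and 93.3% of member nuclei. Its stored entries held few counts, 30, 0, 0 and 33 in the libraries, so its level is not read. Gad1, Gad2 and Slc32a1, which make and load GABA, had 0 counts in all member nuclei, and Gad2 was stored in 3.28% ± 4.97 of members. In uninjured library 2 these 3 genes were stored in 8%, 10% and 10% of nuclei with 3 defining genes. With 4 the shares there were 15%, 20% and 15%, and with 5 or more 6.06%, 6.06% and 3.03%. Shares in the other libraries were at most 10%. Of 8 oligodendrocyte genes 7 were at 0 counts in members, of 4 precursor genes all 4 (Pdgfra, Cspg4, Olig2 and Sox10), and of 7 astrocyte genes all but Slc1a2. Among microglia genes Csf1r and Ptprc were at 0, while P2ry12 had 129, 230, 55.6 and 100 CPM. P2ry12 lies within Med12l on the opposite strand. Cx3cr1 had 10.3, 17.5, 0 and 8 CPM and was stored in 29.8%, 36.9%, 17.8% and 13.3% of members, so P2ry12 was not alone. Slc6a5, a glycine transporter gene of inhibitory neurons, was stored more widely than the 3 GABA genes. It was stored in 36 of 142 nuclei with 3 defining genes, 15 of 51 with 4 and 8 of 107 with 5 or more. Among nuclei outside the rule it was stored in 156 of 1149 with 0 and 64 of 348 with 2, without matching on depth. By stored entries the excitatory marker was thus present in most members and the 3 GABA genes in few, while Slc6a5 was not rare at 3 or 4. Counts of 0 cannot show absence here, since Slc17a6 also had 0 in uninjured library 2 and injured library 1.

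Beyond the 10 genes, 95 of 26191 genes (0.363%) were stored at least 10 percentage points more often in member than in other neuron nuclei in all 4 libraries, and 58 (0.221%) at least 10 points less often. Without matching on depth the counts were 552 and 6. With 5 or more defining genes as the rule they were 364 and 305, and with 2 or more 9 and 3. By levels instead of stored entries, 33 genes were at least 2-fold higher in members on log2(CPM + 5), 22 of them among the 95. Another 10 were lower, 1 of them among the 58, so nearly all of the 58 did not meet the criterion by level.

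With predicted symbols left aside, Nfib had the highest difference in its least extreme library. It was stored in 56.4%, 67.0%, 65.8% and 73.3% of members and in 21.0%, 29.3%, 26.7% and 17.8% of other nuclei. Dscaml1 was stored in 65.8% ± 4.54 of members and 30.0% ± 9.42 of others (SD, n = 4 libraries). Among signalling genes, Pde1a, a calmodulin-dependent phosphodiesterase, reached 45.6% ± 10.6 against 13.7% ± 5.96, and Ror2, a receptor of Wnt5a, 38.1% ± 1.12 against 11.6% ± 4.27. Rgs9, which speeds the shut-off of G proteins, reached 38.4% ± 6.17 against 15.6% ± 5.12, and Pmepa1, an inhibitor of TGF-beta signalling, 75.2% ± 5.99 against 49.2% ± 5.07.

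Genes of the matrix and cell surface were also among those named. Cemip, needed for the breakdown of hyaluronan, was stored in 27.7%, 29.1%, 27.4% and 30.0% of members and in 3.92%, 8.67%, 3.46% and 3.16% of others. Htra1, a secreted serine protease, reached 49.1% ± 4.81 against 19.1% ± 1.12. It overlaps Fgfr2 on the opposite strand, and no source used here says whether counting used strand. Mdga1, a surface protein that binds neuroligins, reached 28.5% ± 5.26 against 9.19% ± 4.80, and Grid2ip, a partner of the delta 2 glutamate receptor, 36.5% ± 4.44 against 13.7% ± 2.18. Pwwp3b reached 36.3% ± 5.81 against 15.1% ± 6.98. The calcium-binding protein gene Necab2 was stored in 44.3% ± 6.61 of members against 22.8% ± 4.05.

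Transcription factor genes made up the rest of the named genes. Zeb2 was stored in 51.3% ± 7.33 of members against 23.1% ± 8.46, although its counts in members were 107, 0, 80.4 and 236 CPM. Its stored entries in members of uninjured library 2 thus held no counts, which is read here as emptied by the subtraction. Zbtb7c was stored in 42.0% ± 4.96 against 15.3% ± 5.96, and Rorb, an orphan nuclear receptor, in 43.2% ± 2.72 against 19.7% ± 3.14. Outside the naming rule, 4933432K03Rik, named after its values were seen, was stored in 52.5% ± 9.93 of members against 11.4% ± 6.68. It overlaps Hs3st2 on the opposite strand, so its reads and those of Hs3st2 cannot be told apart without strand.

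The named genes stored less often included channel and glutamate receptor genes. Cacna1e was stored in 59.6%, 66.0%, 58.9% and 30.0% of members and in 91.0%, 91.1%, 85.3% and 83.7% of others. Gria1, an AMPA receptor subunit, was stored in 55.4% ± 13.5 of members against 81.7% ± 5.75, and Grin2a, an NMDA receptor subunit, in 69.3% ± 10.7 against 92.7% ± 3.76. Kcnj3, a G protein-gated potassium channel subunit, was stored in 70.7% ± 13.9 against 94.6% ± 3.56. Its level, however, was 646, 526, 620 and 464 CPM in members and 634, 682, 571 and 549 CPM in others, so fewer nuclei with an entry did not mean fewer counts.

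The noncoding RNAs Rmst and Pvt1 were stored in 59.5% ± 8.98 and 49.8% ± 8.92 of members against 91.0% ± 4.71 and 71.3% ± 4.06. Zfhx4 was stored in 47.4% ± 12.3 against 78.7% ± 3.85. The other named genes were Dock10, an activator of small GTPases, at 51.1% ± 8.01 against 72.4% ± 11.4, the receptor kinase Flt3 at 59.4% ± 8.5 against 80.3% ± 4.83, and the cortactin-binding protein Cttnbp2 at 71.1% ± 12.1 against 92.3% ± 5.53. Injured library 2 had the lowest member share for all 10 of these genes.

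Because nuclei with 3 or 4 defining genes grade into the rest, the 107 nuclei with 5 or more were described against neuron nuclei with fewer than 3, matched over 5 bins of stored genes. Of 14361 genes stored in at least 5% of either set, 378 (2.63%) were stored at least 10 points more often in all 4 libraries and 290 (2.02%) less often. The gene lists used below were chosen with earlier results of these data known. Most are given as a count beside these background shares, with means ± SD over the 4 libraries, and some of the genes passing the 10-point mark were named after their values were seen.

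Spinal neurons with short, local axons tend to express Nfib, Neurod2 and Prox1, and those with long projections Zfhx3, Zfhx4 and Onecut factors. Of 6 local-type factors stored in at least 5% of nuclei, 5 were stored at least 10 points more often in the 107 nuclei and none less often. Nfib was stored in 92.1%, 93.9%, 100% and 90.9% of them and in 23.6% ± 4.76 of nuclei with fewer than 3 defining genes. Prox1 was stored in 65.8%, 63.6%, 40% and 54.5% against 11.5% ± 3.28, and Neurod2 in 31.6%, 36.4%, 32.0% and 27.3% against 3.01% ± 1.45. Tcf4 reached 99.0% ± 2.00 against 70.2% ± 11 and Nfia 93.2% ± 2.22 against 71.6% ± 7.93. Nfia shares its locus with E130114P18Rik, a defining gene, so its share is not independent of the rule. Nfix, the remaining member, had 8.76% ± 6.55 against 11.1% ± 2.29.

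Of 6 projection-type factors, 1 was stored at least 10 points less often in all 4 libraries and none more often. This was Zfhx4, stored in 18.4%, 18.2% and 40% of the 107 nuclei and in 0 of 11 in injured library 2, which allows a share of up to 27.3%. It was stored in 75.1% ± 5.63 of nuclei with fewer than 3 defining genes. Onecut2 averaged 29.9% ± 12.7 against 49.7% ± 8.66, and Zfhx3 72.1% ± 7.11 against 85.0% ± 7.03, with the sign reversed in injured library 2. Whether these neurons have local or long axons was not measured.

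Genes of the V2a lineage passed the mark in both directions. Sox14, a factor of V2a neurons, was stored in 60.5%, 54.5%, 60.0% and 63.6% of the 107 nuclei against 22.8% ± 7.70. Shox2, which marks a subset of these interneurons, was stored in 8.15% ± 6.78 against 25.5% ± 5.09. Bhlhe22 averaged 19.8% ± 6.94 against 4.75% ± 1.44, with less than 10 points in 1 library. Slc17a6 averaged 91.8% ± 8.43 and the genes Gad1, Gad2, Slc32a1 and Pax2 0.758% to 2.52%.

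Slc5a7, the choline transporter, was stored in 31.6%, 36.4%, 28.0% and 18.2% of the 107 nuclei against 1.82% ± 1.06 of nuclei with fewer than 3 defining genes. Chat, which makes acetylcholine, was stored in 1.76% ± 2.07 against 2.69% ± 0.719. Slc18a3, which loads it into vesicles, was stored in 0 of 107 nuclei, which allows a share of up to 2.80%. Storage of these genes in the same nucleus was not examined. Pnoc, the precursor of nociceptin, averaged 22.9% ± 11.4 against 2.18% ± 0.848, and Gal, the galanin precursor, 18.6% ± 13.4 against 0.874% ± 0.787, with under 10 points in at least 1 library each.

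Matrix genes other than the defining ones went the same way in part. Of 10 basement membrane and hemicentin genes, 3 were stored at least 10 points more often and none less often. Col4a3, whose chain assembles with that of Col4a4, was stored in 34.2%, 36.4%, 16% and 45.5% of the 107 nuclei against 1.51% ± 0.346. Lama2, a laminin chain, was stored in 47.4%, 60.6%, 44.0% and 45.5% against 7.80% ± 5.68. The third was Col4a5, another type IV collagen chain, at 38.2% ± 7.52 against 24.1% ± 7.26. Hmcn1, the second hemicentin, averaged 29.0% ± 7.87 against 8.15% ± 0.782 but missed the mark in uninjured library 1.

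Among 13 heparan sulfate sulfotransferases other than Hs3st2, 1 was stored more often and 3 less often. Ndst4, which starts the sulfation of the chain, was stored in 96.3% ± 3.84 against 65.4% ± 10.8. Hs6st2 was stored in 42.1%, 33.3% and 40% and in 0 of 11 nuclei of injured library 2, against 84.4% ± 8.27. Hs3st4, a close relative of Hs3st2, was stored in 20.6% ± 5.49 against 52.8% ± 10.5, and Ndst3 in 55.7% ± 7.59 against 71.9% ± 9.31. Of 10 axonemal dynein genes other than Dnah11 none passed the 10-point mark in either direction, nor did any of the 4 RFamide peptide and receptor genes stored in at least 5% of nuclei. Of 14 insulin and IGF signalling genes none was stored more often and 1 less often. This was Irs1, a relative of Irs4, at 42.3% ± 16.7 against 61.5% ± 13.0.

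Channel and receptor genes differed in both directions. Of 17 ionotropic glutamate receptor genes none was stored more often and 3 less often: Gria1 at 35.6% ± 13.6 against 79.7% ± 7.87, Grin2a at 50.5% ± 5.88 against 91.0% ± 6.59, and Grin2b, which is part of the neuron gate, at 72.6% ± 18.6 against 95.6% ± 4.63. Of 6 metabotropic receptors 3 were stored less often, Grm8 at 21.7% ± 17.8 against 63.4% ± 8.26, Grm4 at 15.6% ± 12 against 43.0% ± 8.40 and Grm3 at 54.1% ± 20.9 against 73.3% ± 12.4. Of 16 GABA-A and glycine receptor genes 1 was stored more often, the glycine receptor subunit Glra2 at 69.5% ± 11.5 against 41.2% ± 12.5. Another 3, the GABA-A subunits Gabra5, Gabrg3 and Gabra2, were stored less often, at 17.8% ± 11 against 65.7% ± 8.18, 34.4% ± 15.3 against 67.1% ± 8.39 and 43.9% ± 11.7 against 69.6% ± 8.14.

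Of 13 calcium channel genes 1 was stored more often and 2 less often. The low-threshold T-type subunit Cacna1g was stored in 69.0% ± 15.8 against 33.2% ± 11.6, Cacna1e in 19.6% ± 14.8 against 85.3% ± 6.13, and the accessory subunit Cacna2d2 in 58.0% ± 8.76 against 82.0% ± 9.12. Of 27 potassium and HCN channel genes 3 were stored more often and 3 less often. Kcnd3, an A-type channel, had 76.5% ± 5.89 against 37.4% ± 10.8, Kcnn3, a calcium-activated channel, 60.1% ± 11.2 against 24.5% ± 6.96, and Kcnc2, a channel of fast-spiking neurons, 88.6% ± 5.45 against 59.4% ± 14.1. Kcnq5, which carries M-type current, had 34.1% ± 2.65 against 63.5% ± 12.1, and the axonal channels Kcna1 and Kcna2 had 55.2% ± 24.9 and 47.5% ± 13.6 against 79.2% ± 7.37 and 66.3% ± 7.42. Among sodium channel genes the beta subunit Scn3b was stored more often, at 48.1% ± 11.7 against 15.1% ± 6.92. The beta subunit Scn4b was stored less often, at 4.83% ± 3.42 against 25.6% ± 6.93.

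Of 6 calcium-binding protein genes 2 of the Necab family were stored more often and none less often, Necab1 in 68.4%, 75.8%, 68.0% and 72.7% of the 107 nuclei against 18.7% ± 7.51 and Necab2 in 55.8% ± 7.75 against 19.0% ± 5.83. Of 31 axon guidance genes 2 were stored more often and 6 less often. Nrp2, a semaphorin receptor, had 93.1% ± 7.87 against 66.9% ± 7.02, and the semaphorin Sema3c 77.3% ± 8.87 against 42.0% ± 12.8. Among the 6 was Unc5d, a netrin receptor, at 39.4% ± 14.8 against 82.9% ± 4.74. Of 9 pan-neuronal genes outside the gate 2 were stored less often, the neurofilament genes Nefm and Nefl, in 43.8% ± 3.26 and 36.9% ± 12.9 against 77.1% ± 6.57 and 61.5% ± 6.23. Sox11, a factor of growing axons, was the 1 gene of 16 on the axon injury list past the mark, at 50.6% ± 16.7 against 20.5% ± 5.81. Of 12 type II cadherins, Cdh20 and Cdh6 were stored more often, at 73.9% ± 6.52 and 82.3% ± 6.95 against 43.8% ± 6.26 and 67.3% ± 7.43. Cdh9 and Cdh12 were stored less often, at 25.6% ± 17.2 and 73.6% ± 6.79 against 46.8% ± 9.47 and 92.5% ± 4.78. Of 3 astrocyte genes stored in at least 5% of nuclei, Slc1a2, a glutamate transporter, was stored more often, at 54.1% ± 12.3 against 31.0% ± 8.26. Of 19 Hox genes Hoxc4 alone passed it, at 71.7% ± 12.1 against 51.0% ± 7.17. Of 15 monoamine and muscarinic receptor genes Chrm3 was stored more often, at 92.9% ± 1.75 against 70.7% ± 8.95. Adra1a and Htr1f were stored less often, at 20.2% ± 9.43 and 41.7% ± 22.5 against 51.6% ± 8.18 and 63.4% ± 17.9. Of 11 genes that label other V2a subgroups of these data none was stored more often and 2 were stored less often, Adamts19 at 10.6% ± 4.55 against 26.7% ± 3.23 and P2rx6 at 12.6% ± 11.7 against 28.1% ± 8.86.

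The 107 nuclei were not uniform. Hmcn2 was stored without Abi3bp in 57 of them (21, 16, 12 and 8 in the libraries), Abi3bp without Hmcn2 in 26 (8, 10, 5 and 3), both in 17 and neither in 7. Over 11397 genes ranked by the difference in share, the genes at either end are given here, with the 57 called Hmcn2 nuclei and the 26 Abi3bp nuclei. These classes were drawn after the data were seen, by genes of the rule, and are given without a test. The intervals below are exact (Clopper-Pearson, 95%), pool nuclei over libraries and cover counting error only.

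Necab1 was stored in 54 of 57 Hmcn2 nuclei (94.7%, interval 85.4 to 98.9) and in 5 of 26 Abi3bp nuclei (19.2%, 6.55 to 39.4). Rorb was stored in 49 of 57 (86.0%, 74.2 to 93.7) and in 4 of 26 (15.4%, 4.36 to 34.9), and in each library its share in Hmcn2 nuclei was at least 75%, against at most 30.0% in Abi3bp nuclei. Pnoc was stored in 24 of 57 and 1 of 26, and Slc5a7 in 25 of 57 and 2 of 26. The peptide and the choline transporter were thus stored mostly in the Hmcn2 nuclei. Trpc5, a cation channel, was stored in 75.4% and 23.1%, Chrna7, a nicotinic receptor subunit, in 64.9% and 15.4%, and Pcsk6, a proprotein convertase, in 68.4% and 11.5%. Synpr, a synaptic vesicle protein, was stored in 87.7% and 38.5%, and Prox1 in 75.4% and 26.9%.

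Abi3bp nuclei carried another set. St8sia4, which builds polysialic acid, was stored in 21 of 26 Abi3bp nuclei (80.8%, interval 60.6 to 93.4) and 2 of 57 Hmcn2 nuclei (3.51%, 0.428 to 12.1). Rgs6, a regulator of G protein signalling, was stored in 24 of 26 (92.3%, 74.9 to 99.1) and 12 of 57 (21.1%, 11.4 to 33.9). The bicarbonate transporter Slc4a4 was stored in 88.5% and 15.8%, and Prima1, which anchors acetylcholinesterase in membranes, in 88.5% and 19.3%. Bmper, a secreted modulator of BMP signals, was stored in 84.6% and 14.0%, the homeobox factor Meis2 in 92.3% and 26.3%, and Hmcn1 in 73.1% and 8.77%. Kcnj3, among the genes stored less often in members as a whole, was stored in 92.3% of Abi3bp nuclei and 24.6% of Hmcn2 nuclei.

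The defining genes themselves divided between the classes. Dnah11 was stored in 93.0% of Hmcn2 nuclei and 61.5% of Abi3bp nuclei, at 700 and 44.3 CPM, and Gm12128 in 94.7% and 65.4%, at 1430 and 208 CPM. Qrfpr was stored in 35.1% and 73.1%, at 213 and 294 CPM. Irs4 was stored in 47.4% and 42.3% when libraries were pooled, but its share of Abi3bp nuclei ran from 0% to 100% between libraries of 3 to 10 such nuclei. The 17 nuclei with both genes stored Necab1 in 70.6% and Rgs6 in 70.6% of cases, between the 2 classes. They had a median of 5734 stored genes, against 5057 and 5390 in the Hmcn2 and Abi3bp nuclei, and whether any of them are doublets was not tested beyond the calls given above.

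**Figure D4:**
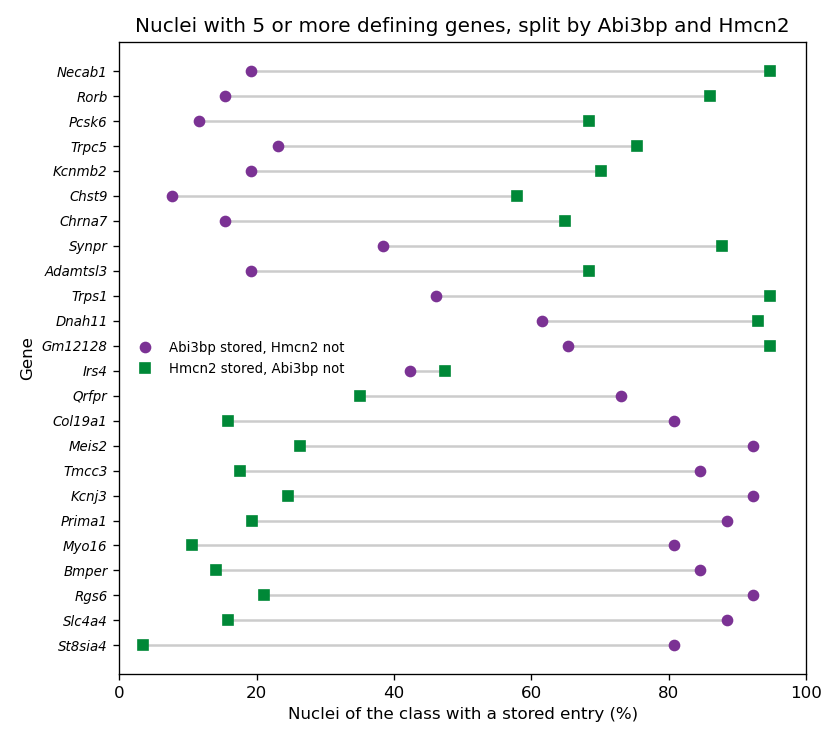
Each row is 1 gene. The green square is its share (%) of the 57 nuclei with Hmcn2 but not Abi3bp stored and the purple circle its share of the 26 nuclei with Abi3bp but not Hmcn2, all with 5 or more defining genes. Necab1 and Rorb lie at 94.7% and 86.0% in the first class, St8sia4 at 80.8% in the second, and the pooled shares of Irs4 at 47.4% and 42.3%.

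The study asked how cervical V2a neurons differ after a lesion above them. Members made up 17.4% (95% exact interval 14.3 to 20.8), 8.33% (6.85 to 10.0), 14.7% (11.7 to 18.2) and 8.06% (5.51 to 11.3) of the neuron nuclei. The 2 libraries of each group differed more from each other than the groups did: the mean was 12.9% ± 6.39 in uninjured and 11.4% ± 4.73 in injured libraries (SD, n = 2). The exact two-sided permutation test gave p = 0.667, and 2 libraries against 2 allow no p below 0.333. Nuclei with 5 or more defining genes made up 7.02%, 2.67%, 5.05% and 2.96%. With shares averaged over 4 bins of stored genes the sign turned, with a difference of 0.586 points (exact permutation p = 1). It also turned without uninjured library 1 (3.07 points) and without injured library 2 (1.89 points). In sorted nuclei, a smaller share of members and a larger share of other cells cannot be told apart.

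No gene passed the injury test in member nuclei. Of 6924 genes tested on summed counts with edgeR's quasi-likelihood test (Benjamini-Hochberg adjustment), 0 (0%) had an adjusted p under 0.05, and 106 had an unadjusted p under 0.05, 50 higher and 56 lower after injury. DESeq2, limma-trend and a test of stored entries also called 0. Without uninjured library 1 edgeR called 149 genes and without uninjured library 2 it called 37, fits in which the lone uninjured library is assumed to vary like the injured ones. Without injured library 1 or injured library 2 it called 0. The genes below are those with the smallest p in each direction, all at an adjusted p of 1.00.

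Klhl1, a neuronal actin-binding protein, had 70.3, 103, 10.9 and 20 CPM in the members, and both injured libraries lay below both uninjured ones. Its log2 fold difference after injury was -2.57 (SE 0.58, unadjusted p = 0.00389 by edgeR's quasi-likelihood test). The share of members with a stored entry was 53.2%, 47.6%, 35.6% and 13.3%. Lrrtm1, a synaptic adhesion protein, had 48.5, 68.6, 9.93 and 8 CPM and was stored in 53.2%, 69.9%, 39.7% and 23.3%. It overlaps Ctnna2 on the opposite strand. Tbce, a tubulin folding cofactor, had 61.2, 79.4, 16.9 and 12 CPM, and Hspa4l, a heat shock protein, 198, 138, 71.5 and 56.0 CPM. Cd163l1, a scavenger receptor gene, had 59.4, 33.0, 3.97 and 12 CPM and was stored in 66.0%, 49.5%, 11% and 16.7%. Its injury difference over all glutamatergic nuclei of these data was known beforehand. For these 5 genes counts and stored shares were both lower in each injured library than in each uninjured one. Other neuron nuclei were lower after injury too for all of them but Hspa4l. Klhl1 had 178, 185, 139 and 150 CPM there, and Cd163l1 63.7, 34.8, 1.75 and 8.08 CPM. Lrrtm1 had 42.2, 57.3, 8.73 and 30.4 CPM in other nuclei, and Tbce 82.1, 75.9, 46.4 and 37.3 CPM. Hspa4l, at 178, 112, 70.5 and 186 CPM in other nuclei, overlapped between the groups. Ammecr1 had 301, 287, 125 and 180 CPM, Atp9b 87.9, 29.6, 8.94 and 0 CPM, and Laptm4b 53.3, 33.0, 8.94 and 12 CPM.

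At the higher end several genes had few counts. Bin1, a membrane-bending protein, had 46.1, 41.0, 137 and 100 CPM and was stored in 88.3% to 96.7% of members. Its log2 fold difference was 1.51 (SE 0.41, unadjusted p = 0.0090, edgeR). Arl3, a small GTPase of cilia, had 9.69, 7.40, 45.7 and 40 CPM, from 16, 11, 46 and 10 counts, while its stored share was 78.7%, 71.8%, 71.2% and 63.3%. Catsper2, a calcium channel subunit of sperm, had 8.48, 6.73, 40.7 and 52.0 CPM with stored shares of 27.7%, 24.3%, 27.4% and 23.3%. Leng9, Pnn, Nrbp2, Htra2 and Hpf1 had 0 counts in both uninjured libraries. Yet Leng9 was stored in 80.9% and 71.8% of uninjured members and 61.6% and 53.3% of injured ones, and Pnn, a splicing-associated protein, in 83.0% and 83.5% against 72.6% and 73.3%. For these 2 genes counts and stored shares, the latter not matched on depth, went opposite ways. Averaged over bins of stored genes, the shares of Leng9 were 79.6%, 69.9%, 64.0% and 57.1%. Those of Pnn were 80.7%, 82.2%, 77.3% and 82.4%, so for Pnn the groups overlapped. Nrbp2 was stored in 41.5% and 56.3% of uninjured members and 46.6% and 60.0% of injured ones, and Htra2 in 29.8% and 49.5% against 53.4% and 46.7%, so the groups overlapped. Hpf1 was stored in 67.0% and 64.1% against 63.0% and 50%. The part of the subtraction in these counts was not tested. In other neuron nuclei every gene of this paragraph but Catsper2 was also higher in both injured libraries. Bin1 had 49.6, 28.9, 113 and 63.5 CPM there and Arl3 22.1, 16.2, 51.7 and 34.6 CPM. Catsper2 was lower there in both injured libraries.

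**Figure D5:**
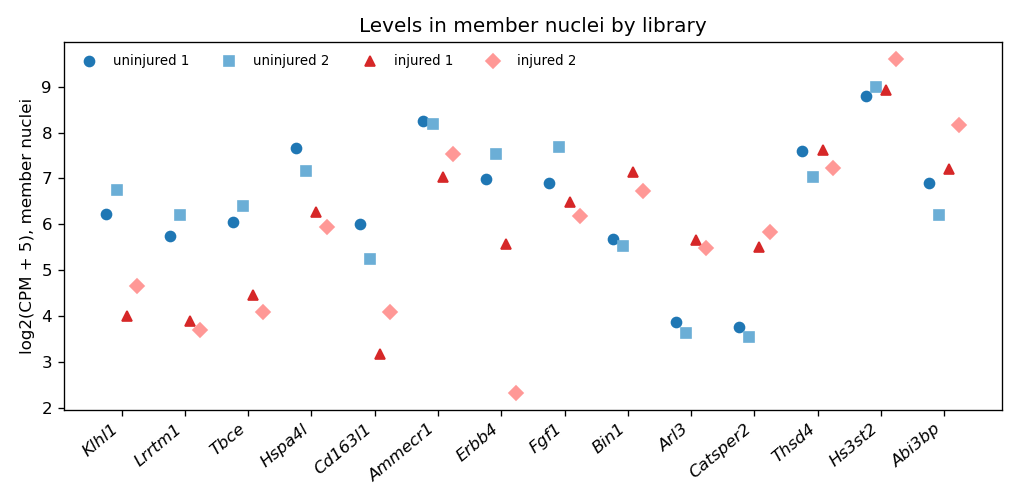
Levels in member nuclei, log2(CPM + 5), are shown for 14 genes with 1 point per library. Blue symbols are uninjured and red ones injured. For Klhl1, Lrrtm1, Tbce, Hspa4l and Cd163l1 both injured libraries lie below both uninjured ones, and none of these differences passed the test over 6924 genes.

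Injury differences over all glutamatergic nuclei of these data were known for Erbb4, Fgf1, Cd163l1, Thsd4 and Glra2. Their values in members, given above for Cd163l1, are therefore not independent support. Erbb4, a neuregulin receptor, had 122, 179, 42.7 and 0 CPM in members, and was stored in 30.9%, 43.7%, 21.9% and 16.7% (log2 difference -2.43, SE 0.94, unadjusted p = 0.0388, edgeR). It was also scarce in the nuclei with 5 or more defining genes, at 20.4% ± 7.20 against 38.8% ± 13.0 in nuclei with fewer than 3. Fgf1, a growth factor, had 114, 200, 84.4 and 68.0 CPM, with all uninjured values above the injured ones. Thsd4, a matrix protein, had 188, 125, 193 and 144 CPM and Glra2 142, 153, 89.4 and 132 CPM. The Thsd4 groups overlapped, and those of Glra2 did not. Sun1, whose tagged form is the sorted label, had 10.3, 22.9, 45.7 and 40 CPM, and its tagged and untagged forms cannot be told apart by symbol.

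Levels of the defining genes, whose stored entries chose the members, are given as description. Abi3bp had 115, 68.6, 142 and 280 CPM and Qrfpr 61.8, 75.3, 77.5 and 268 CPM. In Qrfpr the difference rests on injured library 2, where 67 counts came from 30 nuclei. Gm12128 had 242, 385, 123 and 224 CPM and Dnah11 167, 128, 75.5 and 140 CPM. E130114P18Rik had 199, 298, 87.4 and 212 CPM, and Irs4 12.1, 20.2, 18.9 and 40 CPM. Hmcn2 had 62.4, 53.1, 63.6 and 80.0 CPM. Whether the mix of Hmcn2 and Abi3bp nuclei in each library, given above, moves with these levels was not tested.

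No gene of the 35 lists was called. Over all genes tested 53.4% had a positive difference, with a median log2 difference of 0.04. Of 13 GABA-A and glycine receptor genes 2 were positive and 11 negative (median -0.42), and of 19 synaptic adhesion genes 5 and 14 (median -0.16). By stored entries 18.8% and 40.9% of these lists were positive, against 43.9% of all genes. Htr2c, a serotonin receptor, had 1290, 1110, 724 and 592 CPM, with both injured libraries below both uninjured ones (log2 difference -0.81, SE 0.30, unadjusted p = 0.0325, edgeR). Other neuron nuclei were lower in both injured libraries too, at 1120, 994, 813 and 849 CPM. The stored shares of Htr2c in members, 85.1%, 76.7%, 86.3% and 60%, overlapped between the groups. Rorb had 269, 207, 116 and 184 CPM. All 5 tested axon injury and regeneration genes were positive (median 0.49), but by stored entries 5 were positive and 10 negative. The 5 local-type factors were also all positive by counts (median 0.47) and 1 against 5 by stored entries, where 43.9% of all genes were positive. Atf3 and Jun, early markers of axon damage, had too few counts in members to be tested.

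The last comparison asked whether the injury difference of members departed from that of the other neuron nuclei of the same libraries. The interaction passed for 49 of 9956 genes (0.492%), 43 with a higher difference in members (0.432%) and 6 with a lower one (0.0603%), by edgeR's quasi-likelihood test at an adjusted p under 0.05. Among the 6 were Gm12128 and E130114P18Rik, genes of the rule from which nothing is read, which leaves 47 genes in all and 4 lower ones. In 30 of the 43 the highest level in other neuron nuclei was in uninjured library 2. The share of all tested genes with this pattern was not counted. A higher difference in members itself favours genes with high levels in uninjured other nuclei, so nothing is read from this count. Whether the mix of nuclei bears on the calls was not tested. Uninjured library 2 held more nuclei with inhibitory genes: Pax2 was stored in 19.8% and Gad2 in 15.2% of its neuron nuclei with fewer than 3 defining genes, against at most 1.82% and 4.33% in the other libraries. Without it 3 genes were called, all among the 49, while the count was 59 without uninjured library 1, 92 without injured library 1 and 8 without injured library 2. With the other nuclei restricted to those with Slc17a6 and without inhibitory or dorsal genes 17 were called, 13 of them among the 49. With 5 or more defining genes as the rule none was called.

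Cpa6, a carboxypeptidase, had 34.5, 63.2, 78.5 and 224 CPM in members and 80.1, 81.0, 62.1 and 48.5 CPM in other neuron nuclei, so it was higher after injury in the first and lower in the second. The interaction was 2.04 on the log2 scale (SE 0.37, adjusted p = 5.74e-05, edgeR) and 2.5 without uninjured library 2 (adjusted p = 0.00511). With restricted other nuclei its adjusted p was 3.07e-05. Catsper2 had 20.3, 11.4, 8.38 and 3.08 CPM in the others, against the member values above, an interaction of 4.07 (SE 0.74, adjusted p = 5.74e-05, edgeR) that was 4.27 without that library (adjusted p = 0.00511) and 3.98 with restricted other nuclei (adjusted p = 0.00365). The third gene called without it was Gm12128, a gene of the rule. When only genes keeping a count in 50% of stored entries were tested, the adjusted p of Cpa6 was 0.167 (edgeR), a lost call, and Catsper2 was not among the genes tested. Cpa6 was stored in 23.4%, 26.2%, 28.8% and 23.3% of members, so its stored share did not separate the groups. Klhl1 had 178, 185, 139 and 150 CPM in the others, so its difference was larger in members (interaction -2.21, SE 0.45, adjusted p = 0.000553, edgeR). Its adjusted p was 0.266 without uninjured library 2 and 0.00606 with restricted other nuclei, and 0.0558 among genes keeping a count (edgeR).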

How the data were processed

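Nuclear RNA was measured by droplet single-nucleus sequencing (10x Genomics 3' v3) in 4 libraries. Per the submitters' processing notes, the authors used Cell Ranger, Seurat 5.0.0 and mm10. The deposited matrices hold whole-number UMI counts per gene (32285 symbols) and nucleus after SoupX, per the file names, with settings not given in the sources used here. Gene positions are from GENCODE on GRCm38. The members and gene lists were chosen with earlier results of these data known.

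Shares of other nuclei were averaged over 10 bins of stored genes per nucleus with the members' weights (5 bins for nuclei with 5 or more defining genes). This took the place of thinning, which stored zeros do not allow. Counts were summed over members and over other neuron nuclei per library, and tested with edgeR 4.0.16 (R 4.3.3, TMM, filterByExpr, glmQLFTest, library as block in the interaction). Alternatives used DESeq2 1.42.0, limma 3.58.1, other scalings, filters and thresholds. Scripts were tested on simulated data. Scrublet (scanpy 1.11.5) called 1, 4, 2 and 4 nuclei doublets, and they were kept.

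Named genes are the 10 of the rule. Beyond these are the 15 genes with the largest and the 10 with the most negative difference in stored share, by its least extreme library. For injury the rule took the 8 smallest p in each direction, since fewer than 5 genes were called, and for the interaction the 6 smallest p in each. Up to 4 members of each list and 8 checks complete the rule, and predicted symbols are left out. Genes of the Hmcn2 and Abi3bp classes were chosen after their values were seen. The library totals are 7128996, 13496025, 3982267 and 2901680 counts. Some genes of these lists are not reported here.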

Additional observations from a re-analysis of the deposited data

Results flagged for a closer look

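The injury difference departed between member and other neuron nuclei in 49 genes by the interaction test (edgeR, adjusted p under 0.05), and those named by the rule are given here with levels in uninjured 1, uninjured 2, injured 1 and injured 2. Arhgap6 had an interaction of 4.01 on the log2 scale. Its levels were 13.9, 16.1, 48.7 and 0 CPM in members and 40.4, 354, 22.3 and 12.7 CPM in the others, and without uninjured library 2 the value was 2.17 (adjusted p = 0.836, edgeR). Zeb2 (3.23) had 107, 0, 80.4 and 236 CPM in members, and its adjusted p without that library was 0.0964 (edgeR). Prlr, the prolactin receptor (2.86), had 55.1, 21.5, 68.5 and 88.0 CPM in members and 46.3, 43.1, 14.7 and 12.7 CPM in the others, with an adjusted p of 0.128 without it (edgeR).

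Tmem132d (2.04) had 52.7, 22.9, 80.4 and 148 CPM in members and 82.3, 128, 73.0 and 78.5 CPM in the others, and without uninjured library 2 the value was 1.20 (adjusted p = 1, edgeR). Cpa6 (2.04) and Catsper2 (4.07) were called without uninjured library 2 as well, but among genes keeping a count in 50% of stored entries Cpa6 had an adjusted p of 0.167 (edgeR). In the other direction, Klhl1 had an interaction of -2.21 and Rsrp1 one of -3.15, with adjusted p of 0.266 and 1 without that library (edgeR). Rsrp1 had 0, 94.8, 8.94 and 0 CPM in members and 0, 73.9, 72.3 and 0.385 CPM in the others, so each set had at most 2 libraries with more than 1 CPM.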

How the results depend on the processing

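No genes were called for injury in members under RLE scaling, DESeq2, limma-trend, stored entries, every membership threshold tried, 1000 genes per nucleus, 5 of 6 gate genes, with Scrublet calls left out, or when only genes keeping a count in 50% of stored entries were tested. Without a filter on low counts 9 were called, and leaving out 1 library each gave 0 to 149. The labels give the groups the same replicate numbers but do not say whether these libraries were paired. The correlation of their deviations was -0.08, and 2 pairs cannot settle this. With the replicate block 0 genes were called. For the interaction (49), the counts were 31 with 5 of 6 gate genes, 17 with restricted other nuclei, 1 with 4 or more defining genes, 0 with 2 or more, with 5 or more and for genes keeping a count, and 3 to 92 without 1 library each. The cause was not tested. The difference in member share (-1.45 points) became 0.586 over 4 bins of stored genes and ran from -5.97 to 3.07 without 1 library each.

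Genes stored more often in members (95) numbered 9 with 2 or more defining genes, 265 with 4 or more, 364 with 5 or more, 552 without matching, 10 at 20 points and 33 by CPM. Genes stored less often (58) numbered 3, 205, 305, 6, 2 and 10 under the same settings, and 1 of the 10 lower by CPM was among the 58. By stored entries the signs turned for Leng9 (-0.96), Pnn (-0.18), Nrbp2 (-0.15), Hmcn2 (-0.086), Laptm4b (0.079) and Htr2c (0.052). Hs3st2 turned to -0.063 with 5 or more genes, and Thsd4 ran from -0.17 (without injured library 1) to 0.37 without 1 library each. Thresholds of 5 or more, the restricted other nuclei and the omission of libraries in the member comparison were chosen after seeing the data. Depth limits injured library 2 most: its 30 members put the floor of 3 counts at 12 CPM, against 1.82 to 2.98 CPM elsewhere.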
